A study of Mus musculus with 6 samples.

Results

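The genes described here take glucose into the cell, break it down to pyruvate and lactate, and store or release it as glycogen. The set has 42 genes of these pathways, chosen with earlier results of these data known, so the set as a whole was not tested. Of them, 39 had a probe set that names them alone, out of 18194 genes tested. Gpi1, Pfkfb1 and Eno1 had none and were not analysed here. Affymetrix microarrays measured them in memory-phenotype CD4+ T cells from female C57BL/6 mice aged 8 to 10 weeks with acute experimental autoimmune encephalomyelitis (EAE). EAE is an autoimmune inflammation of the central nervous system, and MOG35-55, a peptide of a myelin protein, induced it here. One group came from the spinal cord, the inflamed tissue (3 arrays), and the other from the inguinal lymph nodes that drain the immunisation site (3 arrays). Both groups came from mice with disease, so the comparison is between tissues of diseased mice and not between disease and health. The labels name no gate for the memory phenotype, and they do not say whether arrays came from separate or pooled mice, so a p-value here speaks only of the spread among these arrays, part of which may be technical.

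Glucose enters T cells through carriers of the SLC2A family and is trapped by hexokinases. Phosphofructokinase commits it to glycolysis, whose last enzymes yield ATP and pyruvate. Lactate dehydrogenase turns pyruvate into lactate, while pyruvate dehydrogenase, which its kinases (PDK) switch off, feeds pyruvate to the mitochondria. Activated T cells are known for a high rate of glycolysis with lactate release. Some memory T cells are known to build and use glycogen, which glycogen phosphorylase breaks down.

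The arrays had median intensities of 68 to 71, and the deposited values ran from 9 to 39505 on a linear scale. Intensity is set by the probe as well as by the transcript, so a gene is compared only with itself across arrays, or as a ratio whose change between tissues is given. The lowest 20% of values lay at or under an intensity of 25, which serves as a floor below. The T cell markers were measured by 9 genes and summed to 44189 to 50925 in spinal cord against 46093 to 61994 in lymph node. With limma, 0 of the 9 were called, and 1 was lower at an unadjusted p under 0.05. Cd44, an adhesion receptor high on memory T cells, lay at 6312 to 10631 in spinal cord against 6456 to 8551 in lymph node, and Cd8a lay at 121 to 225 on all 6 arrays. The 5' signal of Gapdh as a percent of its 3' signal, a sign of how much of the transcript was copied, was 5.32, 4.05 and 24.2 on spinal cord arrays 1, 2 and 3, against 7.09, 3.07 and 25.1 on the lymph node arrays of those numbers. For Gapdh this was close within a number, and it set number 3 apart from numbers 1 and 2, which lay from 3.07 to 7.09. For actin it was 26.9, 20.3 and 40.5 on the spinal cord arrays against 48.3, 8.86 and 56.8 on the lymph node arrays, so that arrays of a number differed more, in both directions. Changes are spinal cord over lymph node on the log2 scale, with their standard error (SE). A gene was called where limma's p, adjusted by Benjamini-Hochberg over all 18194 genes, was below 0.05. Counts at an unadjusted p under 0.05 are given as description only. The share of all genes at that unadjusted p was not counted, so these counts have no background beside them.

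In the spinal cord samples, 3 genes of glucose use were higher: Slc2a3, which carries glucose into the cell, Hk2, which traps it, and Pygl, which releases it from glycogen. Ldhb, the lactate dehydrogenase subunit of oxidative tissues, and Pdk3, a kinase that holds pyruvate back from the mitochondria, were lower. On tissue alone, the enzymes between hexokinase and lactate did not pass the test. When arrays were paired by number, as described below, Tpi1 and Aldoc among them were called higher (limma adjusted p = 0.0106 and 0.0229). Of 39 measured members, 3 were called higher on tissue alone (7.69%), against 1.13% of all genes. Called lower were 2 (5.13%), against 1.41%. The other 34 were not called. The members' median change was 0.11 and that of all genes 0.0019. Of the members 25 had a positive change and 14 a negative one, while 50.7% of all genes had a positive change.

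**Figure D1:**
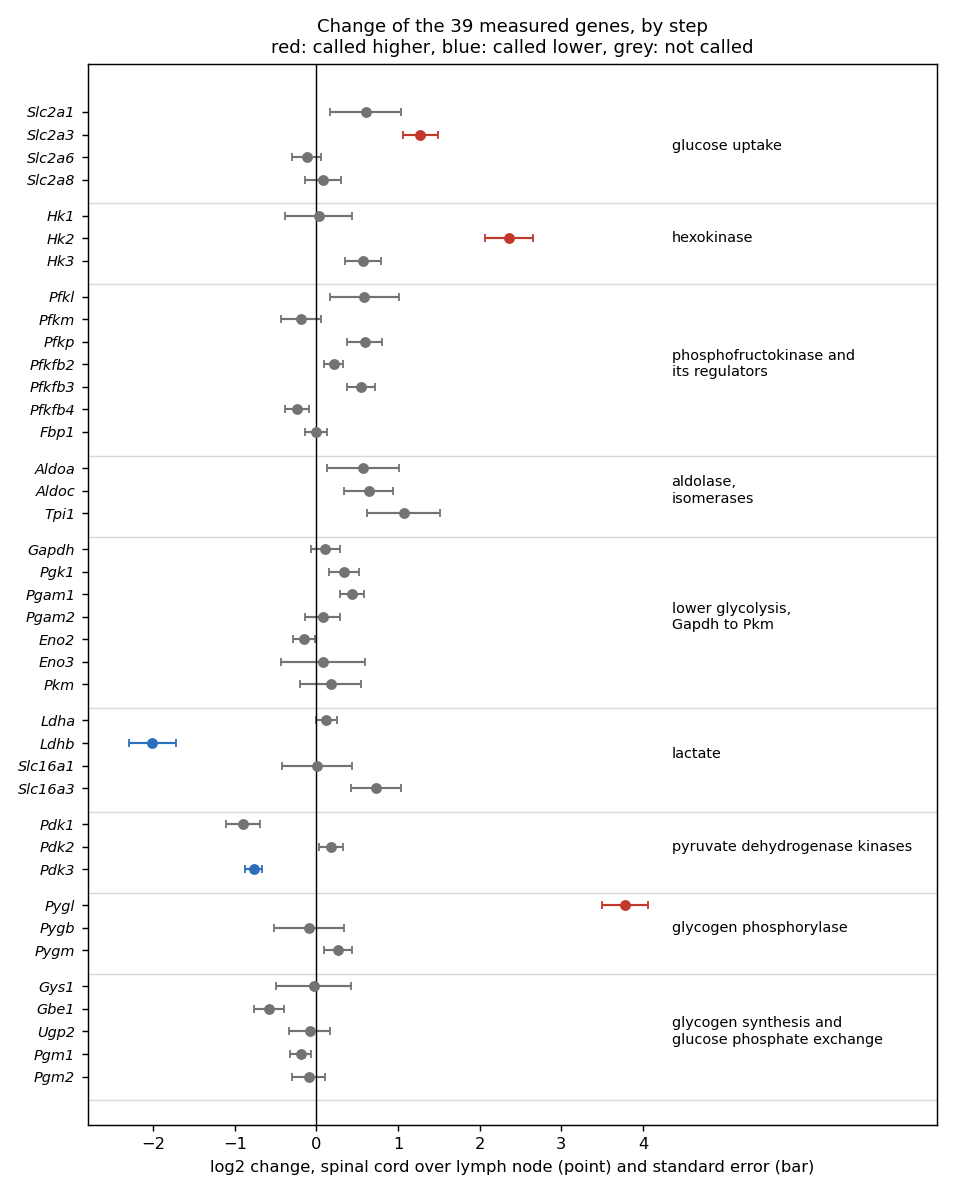
Change of each of the 39 measured genes, ordered by step of the pathway, as log2 of spinal cord over lymph node on the horizontal axis. Points are limma's estimates from 3 arrays per tissue and bars are standard errors; Slc2a3, Hk2 and Pygl stand to the right as called higher and Ldhb and Pdk3 to the left as called lower.

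All 3 spinal cord arrays lay above all 3 lymph node arrays for 8 members (20.5%), against 8.81% of all genes. They lay below them for 4 members (10.3%), against 9.67% of all genes, a share near the background. The array numbers 1 to 3, which both tissues share, were also entered as a block, so that each spinal cord array was compared with the lymph node array of its number. With that block 5 members were called higher (12.8%), against 3.67% of all genes, and 3 were called lower (7.69%), against 7.44%, again near the background. Aldoc, Tpi1 and Pdk1 were the members added. The block lowered the members' median SE from 0.216 to 0.138, and made it smaller for 36 of 39 members and for 83.4% of all genes. Within the number pairs, 16 members were higher in spinal cord in 3 of 3 pairs, 7 were lower in 3 of 3, and 16 were mixed. The shares of all genes in these classes were not counted, so the counts have no background beside them.

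The stretches just upstream of the start site of 4 of the 5 called members are shown here, as the DNA beside the transcripts that differed. That of Ldha, at the first of its 2 annotated starts, is added because it is the partner of Ldhb. Each is 250 bases of the sense strand, from RefSeq on assembly GRCm38.p6, and ends at the base before the annotated start. Capitals mark ACGTG on either strand, the core of the site bound by hypoxia-inducible factors, and also CACGTG, the E-box bound by MYC and USF, which holds ACGTG on both strands. Slc2a3 was not among the promoters used.
Hk2: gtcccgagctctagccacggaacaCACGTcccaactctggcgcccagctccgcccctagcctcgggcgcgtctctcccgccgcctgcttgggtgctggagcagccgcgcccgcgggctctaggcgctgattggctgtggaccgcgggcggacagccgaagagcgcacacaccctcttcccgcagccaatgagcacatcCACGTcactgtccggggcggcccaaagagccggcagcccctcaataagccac
Pygl: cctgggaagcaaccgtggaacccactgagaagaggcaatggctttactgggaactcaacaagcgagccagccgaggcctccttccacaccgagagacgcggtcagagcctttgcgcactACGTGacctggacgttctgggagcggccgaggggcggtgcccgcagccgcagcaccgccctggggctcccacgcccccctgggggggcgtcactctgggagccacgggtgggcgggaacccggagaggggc
Pdk3: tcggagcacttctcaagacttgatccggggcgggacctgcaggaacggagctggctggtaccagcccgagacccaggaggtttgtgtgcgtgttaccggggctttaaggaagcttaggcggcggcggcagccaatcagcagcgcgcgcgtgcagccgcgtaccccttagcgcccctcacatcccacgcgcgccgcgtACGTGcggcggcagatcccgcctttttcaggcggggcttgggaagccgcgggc
Ldhb: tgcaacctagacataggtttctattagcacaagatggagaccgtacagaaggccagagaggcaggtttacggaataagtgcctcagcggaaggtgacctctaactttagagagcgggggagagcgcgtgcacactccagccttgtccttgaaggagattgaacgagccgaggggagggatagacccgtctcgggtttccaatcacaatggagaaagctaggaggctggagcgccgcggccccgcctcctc
Ldha: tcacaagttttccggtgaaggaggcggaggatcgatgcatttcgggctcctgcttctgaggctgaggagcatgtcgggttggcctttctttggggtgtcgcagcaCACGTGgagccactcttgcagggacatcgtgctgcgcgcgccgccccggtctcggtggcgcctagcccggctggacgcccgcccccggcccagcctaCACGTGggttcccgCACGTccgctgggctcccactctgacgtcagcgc
Hk2 lies at chr6:82774455-82774704 on the minus strand and holds 2 matches of ACGTG. Pygl at chr12:70227684-70227933 and Pdk3 at chrX:93832151-93832400, both on the minus strand, hold 1 each. Ldhb at chr6:142507958-142508207 on the minus strand holds 0. Ldha at chr7:46845554-46845803 on the plus strand holds 5, of which 4 are the strands of its 2 E-boxes, while the stretch before the other start of Ldha, at chr7:46846832-46847081, holds 0. Matches therefore stood upstream of Hk2 and Pygl, which were higher, of Pdk3, which was lower, and of 1 of the starts of Ldha, which did not pass the test. Over the set, 25 of the 61 promoters of 41 members held ACGTG in these 250 bases (41.0%), against 16.6% of all 32851 promoters and 19.5% of the 18110 promoters of tested genes. CACGTG was in 6 of them (9.8%), against 7.4% of promoters of tested genes. Mean GC content was 58.6% for members and 57.7% for tested genes. A match describes the letters in this window and is not a measured binding site.

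Of the transcripts of 4 glucose carriers, 1 was called. Slc2a3 encodes GLUT3, a carrier with a high affinity for glucose. Its intensities were 5905, 7815 and 4728 on the spinal cord arrays against 2516, 2819 and 2189 on the lymph node arrays. Every spinal cord array lay above every lymph node array. The change was 1.27 (SE 0.21), 2.41-fold higher in spinal cord, with limma's adjusted p = 0.0434. Each array left out in turn ended the call, with adjusted p from 0.0526 to 0.135. All 4 probe sets of Slc2a3 had positive changes, 0.17 to 1.51, and 1 was called in a limma fit over all probe sets. The one with the change of 0.17 lay at 18 to 27 on all arrays, around the floor. Another lay at 26 to 32 in lymph node, just above it, so the signs of both carry little weight. The probe set used here had an adjusted p of 0.0656 in that fit. In such bulk samples, fewer cells of a type and less RNA per cell cannot be told apart.

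Slc2a1 encodes GLUT1, the carrier that activated T cells are known to induce. It had intensities of 1361, 516 and 1249 on the spinal cord arrays against 619, 458 and 884 on the lymph node arrays, a change of 0.60 (SE 0.43) with limma's adjusted p = 0.635. Spinal cord array 2 lay within the lymph node range while arrays 1 and 3 lay above it. Slc2a6 and Slc2a8, carriers found on membranes inside the cell, had changes of -0.12 (SE 0.18) and 0.08 (SE 0.22) and were not called.

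At the hexokinase step the inducible enzyme was higher and the housekeeping enzyme did not pass the test. Hk2, which binds to mitochondria and is known to rise in T cells with activation, had intensities of 1092, 1200 and 2153 on the spinal cord arrays against 253, 244 and 338 on the lymph node arrays. All spinal cord arrays stood well above the lymph node arrays. On the log2 scale the means were 10.46 ± 0.53 in spinal cord and 8.10 ± 0.26 in lymph node (SD, n = 3 each). The change was 2.36 (SE 0.29), 5.13-fold, with limma's adjusted p = 0.0167. The call held when spinal cord array 1 or 3 or lymph node array 3 was removed, and was lost, with the adjusted p above the threshold, once spinal cord array 2 (0.0754), array 1 of the node (0.0606) or array 2 of the node (0.0952) was removed.

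Hk1, the hexokinase of most tissues, had intensities of 3293, 2285 and 1560 on the spinal cord arrays against 3779, 1753 and 1676 on the lymph node arrays. The groups overlapped along their whole range, and the change was 0.03 (SE 0.41). Hk3, a hexokinase known from myeloid cells, had 219, 357 and 246 on the spinal cord arrays against 211, 164 and 170 on the lymph node arrays, a change of 0.57 (SE 0.22) with limma's adjusted p = 0.31. Its groups did not overlap, and its highest value was on spinal cord array 2, which also had the highest macrophage and neutrophil marker sums.

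**Figure D2:**
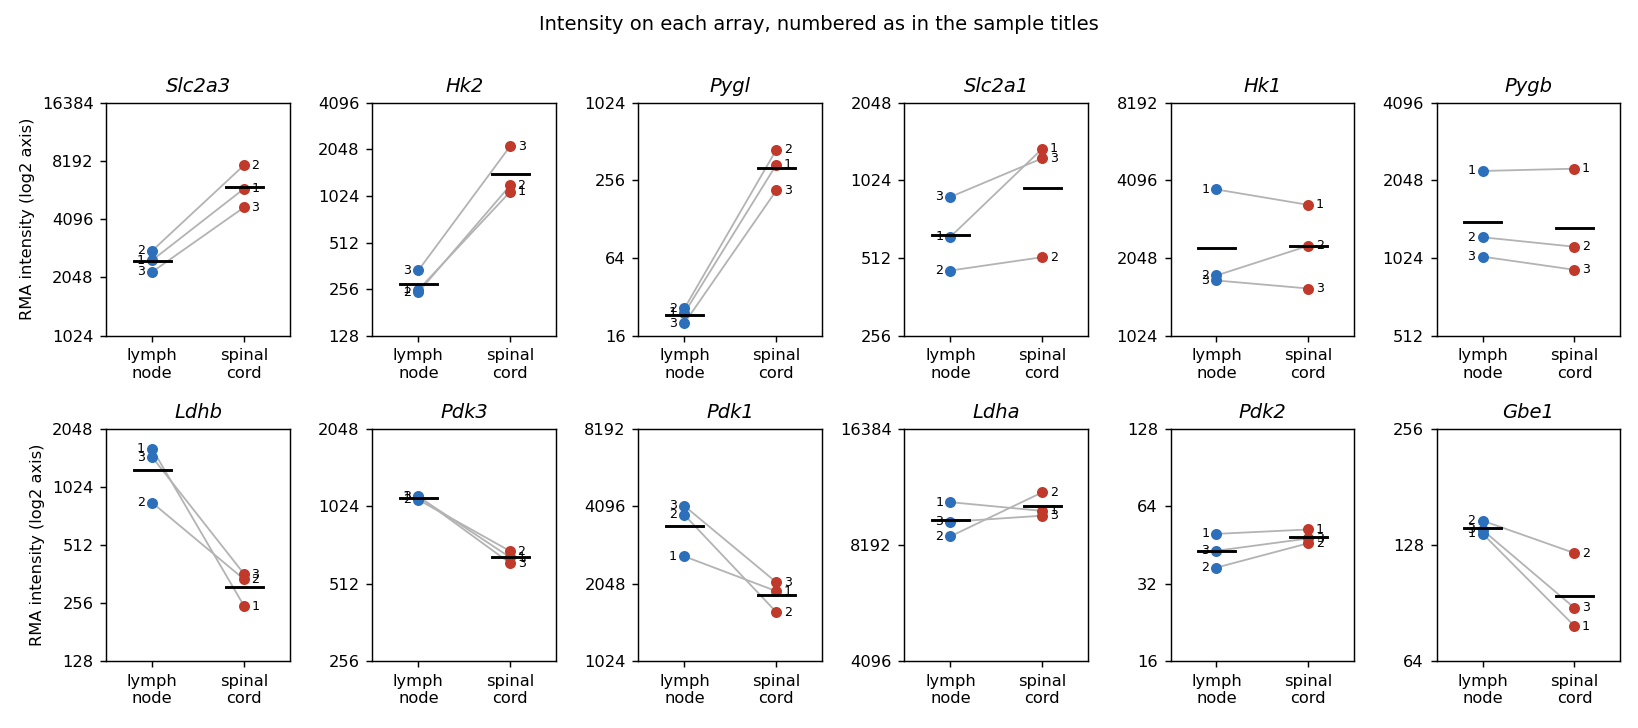
Intensity on a log2 axis for 12 members, with 1 point per array, lines joining arrays of the same number and bars at the means of log2 values (n = 3). The red spinal cord points lie above the blue lymph node points for Slc2a3, Hk2 and Pygl and below them for Ldhb, Pdk3, Pdk1 and Gbe1, and the tissues overlap for Slc2a1, Hk1, Pygb, Ldha and Pdk2.

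With limma 0 of the 7 measured genes of the phosphofructokinase step were called, and 2, Pfkp and Pfkfb3, were higher at an unadjusted p under 0.05. Phosphofructokinase has a liver, a muscle and a platelet subunit. The changes were 0.59 (SE 0.42) for Pfkl, the liver subunit, -0.19 (SE 0.24) for Pfkm, the muscle subunit, and 0.59 (SE 0.22) for Pfkp, the platelet subunit. Pfkp had intensities of 5775, 6687 and 3948 on the spinal cord arrays against 3841, 3637 and 3195 on the lymph node arrays, so its groups stood apart by a narrow gap, and its adjusted p was 0.288. The PFKFB enzymes make and remove fructose 2,6-bisphosphate, the activator of phosphofructokinase. Pfkfb3, the form with the strongest synthetic activity, had 705, 679 and 544 on the spinal cord arrays against 512, 377 and 436 on the lymph node arrays, a change of 0.54 (SE 0.17) with adjusted p = 0.21. Its groups did not overlap. Pfkfb2 stood apart as well with a smaller change of 0.21 (SE 0.11), while that of Pfkfb4 was -0.24 (SE 0.15). Fbp1, the gluconeogenic phosphatase that runs the step backwards, stayed between 28 and 36 on all arrays, close to the floor.

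Aldolase and triose phosphate isomerase split the sugar and interconvert the pieces. Tpi1, the isomerase, had intensities of 5151, 3334 and 6818 on the spinal cord arrays against 2350, 1366 and 3971 on the lymph node arrays. The groups overlapped, yet each spinal cord array exceeded the lymph node array of its number, by 1.13, 1.29 and 0.78. With tissue alone the change was 1.07 (SE 0.44) and limma's adjusted p was 0.358; with the array number as a block the SE was 0.14 and the adjusted p 0.0106. All 3 probe sets of Tpi1 had changes of 1.00 to 1.16.

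Aldoc, a minor aldolase known from brain, also overlapped between tissues, with intensities of 380, 251 and 455 on the spinal cord arrays against 228, 168 and 301 on the lymph node arrays. Its change was 0.64 (SE 0.30), with limma's adjusted p = 0.42 with tissue alone and 0.0229 with the block. Aldoa, the main aldolase, had a change of 0.57 (SE 0.44), and its adjusted p was 0.0544 with the block. For Aldoa as for Tpi1, array 2 of each tissue had the lowest value.

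Lower glycolysis, from Gapdh to pyruvate kinase, had 0 of 7 measured genes called with limma, with or without the block, and 1, Pgam1, higher at an unadjusted p under 0.05. Gapdh, the dehydrogenase, had intensities of 19978, 14902 and 15649 on the spinal cord arrays against 17520, 13147 and 16135 on the lymph node arrays, a change of 0.11 (SE 0.17). Pgk1, a kinase that yields ATP, had 12838, 14965 and 15321 on the spinal cord arrays against 9679, 10365 and 14481 on the lymph node arrays, a change of 0.34 (SE 0.19). Neither gene separated the tissues. Pgam1, the phosphoglycerate mutase of most cells, had 2790, 3137 and 2304 on the spinal cord arrays against 2105, 1886 and 2076 on the lymph node arrays. Its groups did not overlap, with a change of 0.43 (SE 0.15) and an adjusted p of 0.253. Pkm, pyruvate kinase, had a change of 0.18 (SE 0.37), and its splice forms cannot be told apart by 1 probe set. The muscle form Eno3 had 256, 297 and 123 on the spinal cord arrays against 265, 296 and 102 on the lymph node arrays, so the arrays of a number were nearly equal and the numbers differed. Pgam2, the muscle mutase, lay at 42 to 64 and Eno2, the neuronal enolase, at 22 to 29, both near the low end of the arrays.

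**Figure D3:**
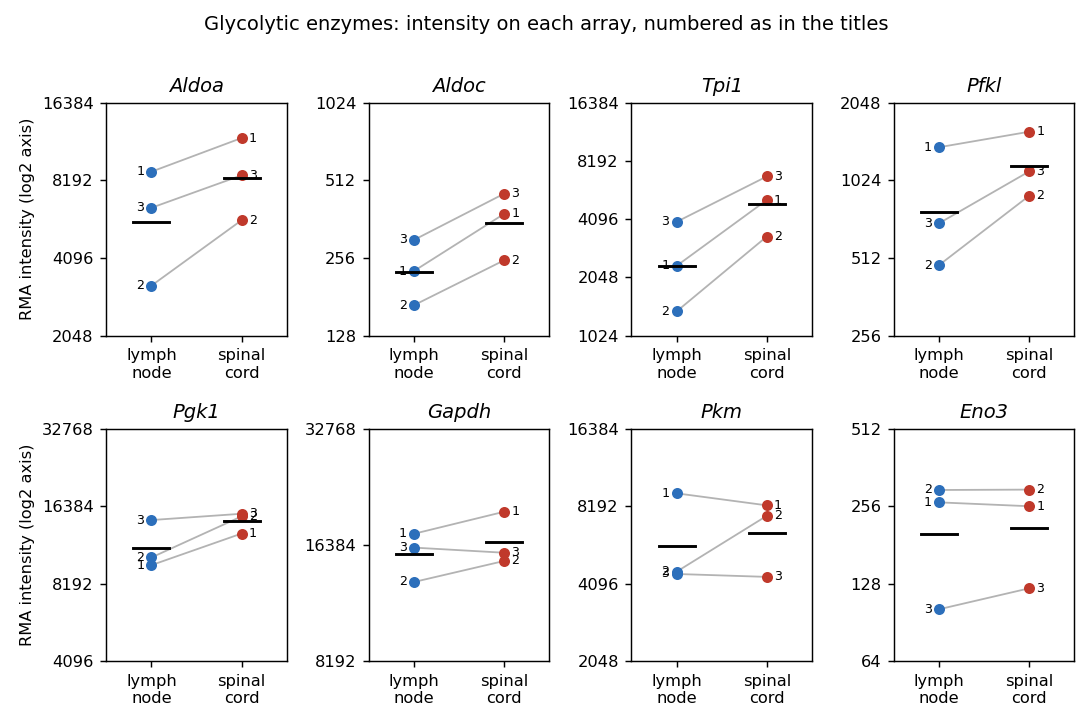
Intensity on a log2 axis of 8 glycolytic enzymes on each of the 6 arrays, with lines joining arrays of the same number and bars at the means of log2 values (n = 3). Tpi1, Aldoc, Aldoa and Pfkl are higher in spinal cord within each of the 3 numbers while their tissue ranges overlap, and Eno3 differs between numbers far more than between tissues.

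At the lactate step the transcript of 1 dehydrogenase subunit was called lower. Lactate dehydrogenase is built from LDHA, which favours making lactate, and LDHB, which favours turning lactate back to pyruvate. Ldhb had intensities of 247, 340 and 362 on the spinal cord arrays against 1608, 847 and 1457 on the lymph node arrays. Every lymph node array stood well above the spinal cord arrays. The change was -2.01 (SE 0.29), 4.03-fold lower in spinal cord, with limma's adjusted p = 0.0274. Its 4 probe sets were all called in a limma fit over all probe sets, with changes from -3.05 to -2.01. With 1 array left out the call of the probe set used held without lymph node array 2 (adjusted p = 0.0414) and was lost without any of the other 5 arrays, where the adjusted p ran from 0.0719 to 0.106.

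Ldha had intensities of 10038, 11215 and 9757 on the spinal cord arrays against 10573, 8627 and 9408 on the lymph node arrays. These ranges overlapped and the change was 0.12 (SE 0.13). The lactate carriers did not pass the test either. Slc16a1, which encodes MCT1, had a change of 0.01 (SE 0.42). Slc16a3, which encodes the lactate exporter MCT4, had 83, 54 and 43 on the spinal cord arrays against 45, 26 and 36 on the lymph node arrays, a change of 0.73 (SE 0.31) with limma's adjusted p = 0.362. Its values were low, and the highest lymph node array exceeded the lowest spinal cord array.

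Of the kinases that switch off pyruvate dehydrogenase, Pdk3 was lower in spinal cord. It had the tightest replicates among the called members, with intensities of 648, 685 and 615 on the spinal cord arrays against 1115, 1085 and 1119 on the lymph node arrays. No spinal cord array came near the lymph node arrays. The change was -0.77 (SE 0.10), 1.71-fold lower, with limma's adjusted p = 0.0221. Leaving out any 1 array ended the call, with adjusted p from 0.0592 to 0.0936 and changes of -0.81 to -0.73. It was also lost with a filter on dim genes (adjusted p = 0.0546) and with a variance trend and robust moderation (0.16).

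Pdk1, a kinase of the same family that hypoxia is known to induce, had 1918, 1591 and 2076 on the spinal cord arrays against 2618, 3789 and 4107 on the lymph node arrays. Its groups did not overlap. The change was -0.90 (SE 0.21), and limma's adjusted p was 0.108 with tissue alone and 0.0332 with the block. All 4 of its probe sets had negative changes, from -1.77 to -0.82, and 1 of them was called in the fit over all probe sets (adjusted p = 0.0115). The mean of its probe sets gave -1.20 (adjusted p = 0.00992). Pdk2 lay at 37 to 52 on all arrays, with a change of 0.18 (SE 0.15).

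The member with the largest change was a glycogen phosphorylase. Pygl, the liver form, had intensities of 339, 443 and 214 on the spinal cord arrays against 24, 26 and 20 on the lymph node arrays. The lymph node arrays lay at or near the floor of 25, so that they give a bound rather than a level. The fitted change was 3.78 (SE 0.28) with limma's adjusted p = 0.00533. Against the higher of the floor and the measured value on each lymph node array, Pygl was at least 12.6-fold higher in spinal cord. The call held with each of the 6 arrays left out, with adjusted p from 0.0113 to 0.0412. It has 1 probe set, so no other probe bears on it.

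Pygb, the brain form found in many cells, had 2275, 1133 and 922 on the spinal cord arrays against 2229, 1233 and 1037 on the lymph node arrays. Arrays of a number were close to each other, and the change was -0.09 (SE 0.43). Pygm, the muscle form, stayed at 25 to 38. Of the 5 genes of storage and phosphate exchange 0 were called with limma, and 1, Gbe1, was lower at an unadjusted p under 0.05. Gys1, the glycogen synthase of most tissues, had a change of -0.04 (SE 0.46), and Ugp2, which makes the sugar donor UDP-glucose, of -0.08 (SE 0.25). Gbe1, the branching enzyme, had 79, 122 and 88 on the spinal cord arrays against 137, 148 and 140 on the lymph node arrays. Its groups stood apart with a change of -0.58 (SE 0.18) and limma's adjusted p was 0.211. Pgm1 and Pgm2, which move phosphate between positions of the sugar and so link glycogen to glycolysis, had changes of -0.19 (SE 0.13) and -0.10 (SE 0.21).

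Ratios between forms of an enzyme were formed within each array, which cancels what scales both forms alike. Of 16 such pairs, 7 separated the tissues. How often ratios of other gene pairs separate was not counted, so this count has no background beside it. Pdk2 and Pfkfb3 recur among the 7, which are therefore not separate results. An exact two-sided permutation test of 3 arrays against 3 cannot give a p under 0.1, each of the 7 reached it, and the smallest value adjusted over the 16 pairs was 0.229. Several of these pairs contain a gene called above, and these ratios are not independent of that call. Log2 of Hk2 over Hk1 was -1.59, -0.93 and 0.46 on the spinal cord arrays against -3.90, -2.84 and -2.31 on the lymph node arrays, a difference of 2.33 or 5.04-fold. It stood higher in spinal cord by 1.92 to 2.77 within each array number.

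Log2 of Ldhb over Ldha was -5.34, -5.04 and -4.75 on the spinal cord arrays against -2.72, -3.35 and -2.69 on the lymph node arrays. The ratio was 4.37-fold lower in spinal cord, and no array of one tissue entered the range of the other. Log2 of Pygb over Pygl was 2.75, 1.35 and 2.11 on the spinal cord arrays against 6.54, 5.57 and 5.70 on the lymph node arrays, and its change of -3.86 rests on lymph node values of Pygl near the floor. The other separated pairs were Pfkfb3 over Pfkfb4 (0.78), Pfkfb2 over Pfkfb3 (-0.33), Pdk1 over Pdk2 (-1.07) and Pdk3 over Pdk2 (-0.95).

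Slc2a3 over Slc2a1 did not separate the tissues. Its log2 ratios were 2.12, 3.92 and 1.92 on the spinal cord arrays against 2.02, 2.62 and 1.31 on the lymph node arrays, a difference of 0.67 (exact permutation p = 0.5). The ratio of Pfkp to Pfkl differed by 0.0031 (exact permutation p = 1), with number pairs from -0.36 to 0.39.

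**Figure D4:**
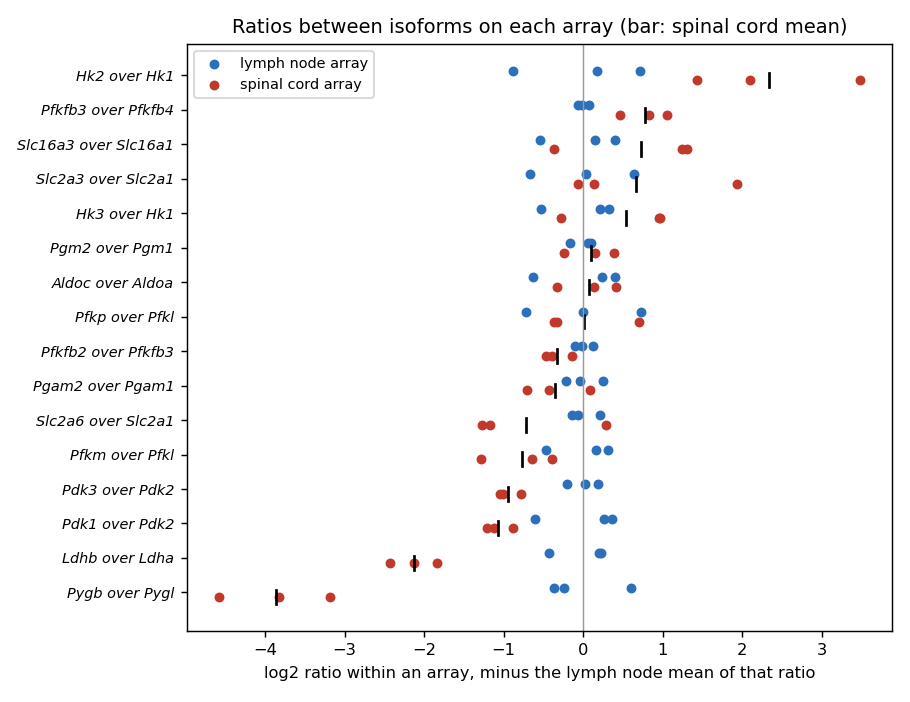
Log2 ratio of one form of an enzyme to another on each array, for the 16 pairs, set to 0 at the lymph node mean of the pair, with black bars at the spinal cord mean. The tissues separate for 7 pairs, among them Hk2 over Hk1, Ldhb over Ldha and Pygb over Pygl, and overlap for Slc2a3 over Slc2a1 and Pfkp over Pfkl.

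Pathways that join glycolysis were read from 6 lists with 120 genes, of which 109 were measured. With limma 2 of the 109 were called higher (1.83%) and 0 lower, shares near those of all genes or below them. At an unadjusted p under 0.05, 13 were higher and 7 lower. The median change was -0.05. With the array number as a block, 6 were called higher and 6 lower (5.50% each, against 3.67% and 7.44% of all genes).

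Ppp1r3b, which brings a phosphatase to glycogen and so favours its synthesis, was the called gene of the 17 further glycogen genes, whose median change was 0.02. It had intensities of 350, 408 and 527 on the spinal cord arrays against 113, 134 and 82 on the lymph node arrays. Each spinal cord array exceeded every lymph node array by a wide gap. The change was 1.97 (SE 0.24) with limma's adjusted p = 0.0159. Removing array 2 or 3 of the spinal cord raised the adjusted p to 0.0820 or 0.0535, and removing array 1 or 2 of the lymph node raised it to 0.0527 or 0.0513, which ended the call. Phkb, a subunit of the kinase that activates glycogen phosphorylase, had a change of -0.53 (SE 0.32).

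Among 25 regulators of glycolysis, whose median change was -0.09, Epas1 was called. It encodes HIF-2α, a hypoxia-inducible factor, and had intensities of 1625, 1294 and 1589 on the spinal cord arrays against 427, 576 and 478 on the lymph node arrays. The groups were far apart and tight. The change was 1.61 (SE 0.16) with limma's adjusted p = 0.00979, and with any 1 array left out the adjusted p was at most 0.0494. Hif1a, the factor best known for inducing glycolytic genes, had 14317, 15609 and 11884 on the spinal cord arrays against 8771, 11805 and 10046 on the lymph node arrays. The groups were separated by a small gap, and its change of 0.45 (SE 0.17) had an adjusted p of 0.295. Egln3, a prolyl hydroxylase that marks these factors for breakdown, had 622, 396 and 355 on the spinal cord arrays against 934, 956 and 1072 on the lymph node arrays, a change of -1.15 (SE 0.23). Its adjusted p was 0.0676 with tissue alone, 0.026 with the block and 0.0267 without spinal cord array 1. With the block Egln1, its sister enzyme, was also called higher (change 0.64) and Foxk1, a transcription factor of glycolysis, lower (change -0.75).

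The pentose phosphate pathway, which makes NADPH and ribose, had 0 of 9 measured genes called, 1 of them lower at an unadjusted p under 0.05. G6pdx was listed but not measured, and G6pd2 lay at 14 to 16 on all arrays, under the floor. The median change of the pathway was -0.20. Its genes with the smallest p were Prps2, which activates ribose (change -0.59, SE 0.22), and Taldo1, transaldolase (change -0.30, SE 0.15). Prps2 was called lower with the block (limma adjusted p = 0.0413). The entry of pyruvate into mitochondria had 0 of 12 genes called, 1 of them higher at an unadjusted p under 0.05. Its median change was -0.17. Pdp1, the phosphatase that reverses the PDK enzymes, had a change of 0.50 (SE 0.19) with adjusted p = 0.317, and Pdha1, a subunit of pyruvate dehydrogenase, had -0.49 (SE 0.25).

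Of 25 other sugar transporters and glycolytic forms 0 were called, with 3 higher at an unadjusted p under 0.05. Their median change was 0.05. The smallest p belonged to Slc2a5, a fructose carrier (change 0.38, SE 0.12), and Galm, which interconverts forms of sugars (change 0.64, SE 0.23). Pck2, the mitochondrial enzyme that makes phosphoenolpyruvate, was called lower with the block (change -0.71).

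Of 21 genes in side branches that leave glycolysis for serine, glycosylation and redox shuttles, 0 were called with tissue alone, and 4 were higher and 4 lower at an unadjusted p under 0.05. Their median change was -0.36. Got1, an aminotransferase of the malate-aspartate shuttle, had intensities of 1285, 1362 and 2033 on the spinal cord arrays against 721, 337 and 706 on the lymph node arrays, a change of 1.46 (SE 0.35) with limma's adjusted p = 0.115 and 0.0182 with the block. Uap1, which makes the donor for glycosylation UDP-N-acetylglucosamine, had a change of 1.19 (SE 0.32) with adjusted p = 0.149. With the block Uap1, Pmm1, a mannose enzyme, and Got1 were called higher, and Psat1 and Psph, which make serine, were called lower with changes of -1.12 and -0.65.

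Markers of other cells were measured on the same arrays. The list for macrophages, monocytes and microglia had 20 genes, 17 with a positive change, and a median of 0.72. With limma 0 were called with tissue alone, and 15 were higher at an unadjusted p under 0.05. With the block 8 were called higher (40%, against 3.67% of all genes). The 20 genes summed to 12074, 19142 and 13315 on spinal cord arrays 1, 2 and 3, against 14433, 15370 and 14932 on the lymph node arrays. Ctss made up most of this total and went the other way, at 9965 to 13155 in spinal cord against 13529 to 14454 in lymph node. Summed without Ctss, the list reached 1627, 5987 and 3350 on those spinal cord arrays, against 904, 916 and 1019 on the lymph node arrays. Lyz2, lysozyme of myeloid cells, had 245, 1771 and 563 on the spinal cord arrays against 78 to 81 on those of the node. Itgam, the myeloid integrin CD11b, lay at 22 to 27 and Cd163 at 13 to 17 on all arrays, at or under the floor or just above it.

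Spinal cord array 2 was the highest in these sums and in 10 neutrophil genes, which summed to 575, 2307 and 849 there against 436 to 602 in the node. With limma 0 of these 10 were called, with 2 higher at an unadjusted p under 0.05. Pygl and Slc2a3 were also highest on spinal cord array 2, whereas Hk2, Ppp1r3b and Pgk1 were highest on array 3. Without spinal cord array 2 the changes were 3.54 for Pygl, 1.08 for Slc2a3 and 2.48 for Hk2. The part of myeloid RNA in these results was not tested.

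**Figure D5:**
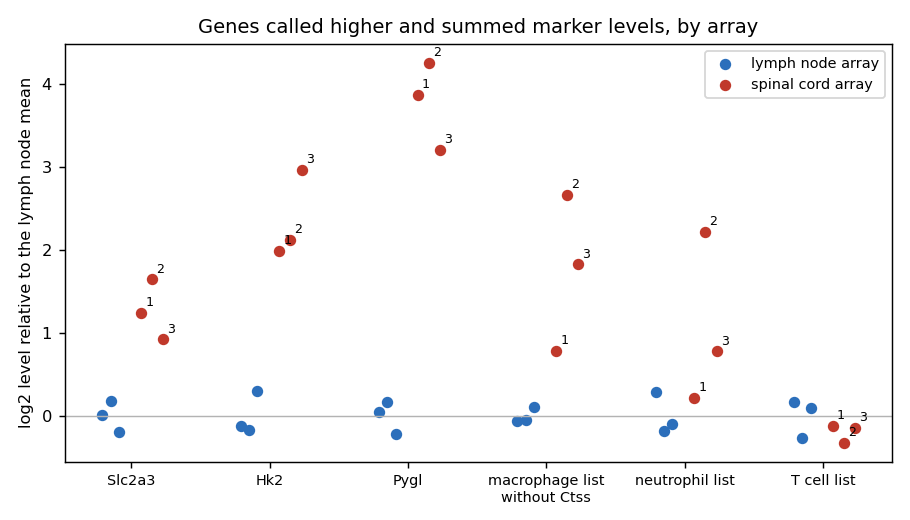
Log2 level of the 3 members called higher and of 3 summed marker lists on each of the 6 arrays. Levels are relative to the lymph node mean, spinal cord arrays are numbered, and the macrophage list is summed without Ctss. Macrophage and neutrophil sums are highest on spinal cord array 2 and lowest of the spinal cord arrays on array 1, Pygl is highest on array 2 and lowest on array 3, Hk2 is highest on array 3, and the T cell sums overlap.

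Among 5 dendritic cell genes Itgax, the integrin CD11c that some T cells also carry, was called higher, with a change of 1.53 (SE 0.17) and limma's adjusted p = 0.0128. Removing array 2 of either tissue ended that call (0.0533 for spinal cord and 0.0625 for lymph node). Among 7 B cell genes Cd22 was called lower with limma, with a change of -2.67 (SE 0.13). At an unadjusted p under 0.05, 2 were lower, Cd22 and Cd79b. Both were called lower with the block (28.6%, against 7.44% of all genes). Cd79b, part of the B cell receptor, had 43, 29 and 39 on the spinal cord arrays against 117, 79 and 57 on the lymph node arrays, and Ms4a1, which encodes CD20, lay at 27 to 43 on all arrays. The 7 genes summed to 344 to 367 in spinal cord against 951 to 997 in lymph node. Most of that gap was Cd22, at 98 to 116 against 620 to 750. Of the 7 genes, 5 had a negative change and 2 a positive one. The part of B cell RNA in the lower values of Ldhb and Pdk3 was not tested. The 11 neuron and glia genes had 0 called and 0 at an unadjusted p under 0.05 with limma. Summed without Mbp they reached 569 to 584 in spinal cord against 483 to 565 in lymph node. The 2 measured red cell genes, of which 0 were called and 1 was higher at an unadjusted p under 0.05, summed to 73 to 219 in spinal cord against 49 to 59 in lymph node.

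All 7 dividing cell genes had negative changes, with a median of -0.82. Their sums were 10767 to 12894 in spinal cord against 15104 to 19880 in lymph node. With limma 0 were called with tissue alone, and 4 were lower at an unadjusted p under 0.05. With the block 4 were called lower (57.1%, against 7.44% of all genes). Their part in the lower values of Ldhb, Pdk1 and Pdk3 was not tested.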

How the data were processed

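RNA of 6 samples, 3 per tissue, was extracted with an RNeasy kit and amplified in 2 cycles from 1 ng for Affymetrix arrays, per the labels' protocols. Such amplification favours 3' ends and can add spread between arrays. The authors deposited RMA intensity values for 45101 probe sets, per the submitters' processing notes; its version and the build were not given in the sources used here. They were linear whole numbers, so log2 was taken here. Depth does not apply, and the number of arrays limits precision.

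The titles gave the tissue of each sample. Of the probe sets 34958 had 1 symbol in the platform annotation, 932 had several and 9211 had none; 34754 of the first matched RefSeq (GRCm38.p6) and 0 symbols changed. Per gene, the probe set of the highest mean was used. limma 3.58.1 (lmFit, eBayes; R 4.3.3) was fitted to 18194 genes on tissue alone, with two-sided tests, after a test on simulated data. Python 3.11.15, pandas 2.3.3 and matplotlib 3.10.9 made tables and figures.

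Titles number the arrays 1 to 3 in both tissues but do not say what the number stands for. Deviations from tissue means correlated at 0.576, 0.509 and 0.777 across genes for the same number and at -0.57 to 0.0050 otherwise. Such deviations cancel out within a tissue, so high values for equal numbers push the others down, and those are no separate evidence. In the fit with the block equal numbers were treated as pairs, on the evidence of the data alone. The main calls, SE and adjusted p rest on tissue alone and leave this pairing out.

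Members, lists and tests were chosen with earlier results of these data known. Every measured member is named; of the pathway lists, called genes and otherwise the 2 with the smallest p are named, and other list genes were named after their values were seen. Alternatives were the number as a block, each array left out, quantile normalization, median centring, a filter on genes under the 40th percentile, a trended robust variance, array weights, 2 other choices of probe set and a floor at the 20th percentile. The fit over all probe sets and the marker sums without Ctss or Mbp were chosen after seeing the data.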

Additional observations from a re-analysis of the deposited data

How the results depend on the processing

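The 5 called members kept their sign under every alternative run. The block, the filter and the trended robust variance leave the change itself as it was, so no sign could turn there. All 5 calls held with the replicate block, median centring, quantile normalization, array weights and both other choices of probe set. Hk2, Pdk3 and Pygl have 1 probe set each, so those choices could not alter their values. The count called higher, 3, became 5 with the replicate block and 1 with a floor at the 20th percentile, and ran from 1 to 2 with 1 array left out. The count called lower, 2, became 3 with the block and, Pdk1 being added, with the probe set of highest variance or the mean of all probe sets, and 1 with the filter on dim genes, with the trended robust variance and with the floor, and ran from 0 to 1 with 1 array left out. Under the floor Slc2a3, Hk2 and Ldhb lost their calls at adjusted p of 0.104, 0.0674 and 0.0871 by limma; the cause was not tested. Over all genes, leaving out 1 array left 49 to 136 called higher and 32 to 190 lower, and the floor left 77 and 84, against 206 and 257. In the pathway lists the block raised the counts from 2 higher and 0 lower to 6 and 6, and with 1 array left out they were 1 to 2 and 0 to 1. The members' median change ran from 0.0039 to 0.27 over all alternatives.

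Signs turned for genes that were not called. Pfkfb2 was -0.093 with the probe set of highest variance. Slc16a1 was -0.015 with median centring and -0.18 with array weights. Quantile normalization gave Pygb 0.026, Gys1 0.064, Ugp2 0.038 and Pgm2 0.025, and array weights gave Gys1 0.10. With 1 array left out the change ran from -0.24 to 0.050 for Slc2a6, -0.044 to 0.26 for Slc2a8, -0.24 to 0.41 for Hk1, -0.11 to 0.070 for Fbp1, -0.021 to 0.20 for Gapdh and -0.083 to 0.24 for Pgam2. It ran from -0.41 to 0.46 for Eno3, -0.0022 to 0.52 for Pkm, -0.33 to 0.34 for Slc16a1, -0.47 to 0.24 for Pygb, -0.38 to 0.36 for Gys1, -0.22 to 0.13 for Ugp2 and -0.25 to 0.11 for Pgm2. The block changed the call of no member but Aldoc, Tpi1 and Pdk1. Low signal limits Pygl in lymph node, Fbp1, Eno2 and Pygm, whose values lay near the floor.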
